A study of Homo sapiens with 10 samples.

Results

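The genes described here control how a cell takes up, senses and exports cholesterol, and they were followed in ARPE-19 cells, an established human line of retinal pigment epithelium (RPE), the cell layer that nourishes the photoreceptors. They were chosen by symbol. INSIG1, INSIG2, SREBF1, SREBF2, SCAP, STARD4, MYLIP and ABCA1 each had 1 row in the read-count table, so the set held 8 of 22626 rows, and all 8 passed the filter on low counts. RNA was sequenced after 48 h in high glucose medium with 37.5 mM D-glucose (n = 5) or in control medium (n = 5). The control held 5.5 mM D-glucose, topped up with mannitol, a sugar alcohol, at 32 mM to match the osmotic load. Both groups were grown in DMEM with 10% fetal bovine serum, which carries lipoprotein cholesterol. The 10 libraries came from 1 cell line. The study's methods speak of independent experiments for its data in general, and no label says it of these libraries, so the p-values measure the spread between them, which may be technical. Libraries of a group differed by more than counting error (chi-square per gene of 13.8 to 78.7 over 20 pairs).

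The sterol regulatory element-binding proteins (SREBPs) are made as membrane-bound precursors. The precursor rides on the sterol sensor SCAP, and INSIG proteins hold this pair in the endoplasmic reticulum while sterols are plentiful. When sterols run low, the pair travels to the Golgi, where proteases release the active fragment, which turns on genes of cholesterol and fatty acid synthesis and of lipoprotein uptake, INSIG1, STARD4 and SREBF2 itself among them. The liver X receptors (LXRs) work on the other side. They are nuclear receptors that bind oxysterols and turn on ABCA1, which loads cholesterol onto lipoproteins outside the cell, and MYLIP, a ubiquitin ligase that sends lipoprotein receptors to degradation. RPE cells take in lipid both from the blood and from shed photoreceptor tips, and ABCA1 is a known route by which they pass cholesterol on. The values below are RNA levels and do not measure cleavage of the precursors or any protein.

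The reference promoters of the members that rose and of an SREBP and an LXR gene are shown first, since the comparison set these kinds of gene against each other. Each sequence is the 250 bases before the RefSeq transcript start on GRCh38.p14, 5′ to 3′ on the strand of the gene. Capitals mark the E-box CACGTG, the NF-Y box CCAAT (which reads ATTGG on the other strand), the sterol regulatory element spelled TCACNCCAC, and in ABCA1 a pair of half-sites explained below the sequences. INSIG1 lies at chr7:155297776-155310235 on the plus strand, and its promoter window at chr7:155297628-155297877. STARD4 lies at chr5:111496033-111512590 on the minus strand, with its window at chr5:111512536-111512785. SREBF2 lies at chr22:41833079-41907308 on the plus strand, with its window at chr22:41832855-41833104. ABCA1 lies at chr9:104781002-104928237 on the minus strand, with its window at chr9:104928156-104928405. The gene positions are those of GENCODE release 29 on GRCh38. For each of these genes the GENCODE start falls inside the window, and the window of SCAP lies inside its GENCODE gene. Distances below are therefore counted from the RefSeq start.
INSIG1: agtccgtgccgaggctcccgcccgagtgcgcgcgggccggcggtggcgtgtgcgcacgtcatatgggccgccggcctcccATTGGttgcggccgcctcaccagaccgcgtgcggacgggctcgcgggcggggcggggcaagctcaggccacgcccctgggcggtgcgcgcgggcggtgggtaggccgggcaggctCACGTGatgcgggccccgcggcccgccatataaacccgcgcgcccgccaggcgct
STARD4: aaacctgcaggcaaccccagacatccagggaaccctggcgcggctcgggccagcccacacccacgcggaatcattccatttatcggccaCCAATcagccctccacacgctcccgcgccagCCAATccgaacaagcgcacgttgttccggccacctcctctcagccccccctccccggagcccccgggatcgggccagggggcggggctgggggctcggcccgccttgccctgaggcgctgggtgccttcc
SREBF2: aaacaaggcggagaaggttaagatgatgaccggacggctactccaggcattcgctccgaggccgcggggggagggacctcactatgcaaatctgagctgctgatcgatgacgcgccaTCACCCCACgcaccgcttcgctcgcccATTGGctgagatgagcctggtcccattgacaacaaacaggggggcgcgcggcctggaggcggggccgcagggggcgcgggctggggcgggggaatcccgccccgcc
ABCA1: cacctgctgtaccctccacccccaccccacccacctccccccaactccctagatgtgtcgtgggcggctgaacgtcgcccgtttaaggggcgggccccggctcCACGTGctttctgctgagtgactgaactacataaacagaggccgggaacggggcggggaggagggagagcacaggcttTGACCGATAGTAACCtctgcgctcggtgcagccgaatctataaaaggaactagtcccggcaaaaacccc

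The letters TCACNCCAC were found on either strand in 1 of the 9 member windows of 250 bases before to 50 after the start (INSIG2 had 2 windows), that of SREBF2, where they begin 133 bases before the start. Of all 35116 RefSeq windows of this length, 1.13% held them. The related spelling TCACNTGAC was in 0 of the 9 windows and in 1.67% of all windows. The E-box was in the windows of INSIG1, SCAP and ABCA1, beginning 55, 58 and 147 bases before the start, and in 7.26% of all windows. CCAAT was in those of INSIG1, SREBF2, STARD4 and MYLIP and in 34.6% of all windows, and the GC box GGGCGG, not capitalised above, was in all 9 and in 45% of all windows. The LXR element is a direct repeat of 6-base half-sites 4 bases apart. Spelled in full, AGGTCA repeated with 4 bases between, it was in 0 of the 9 windows and in 0.0199% of all windows. A looser spelling, GGTCA or GGTTA followed by GGTCA with 4 bases between, left out the free first base of the second half-site, and was corrected to 5 bases between after the data were seen. So corrected, GGTCA repeated was in 0 of the 9 windows and in 0.0854% of all, while GGTTA and GGTCA matched in ABCA1 on the strand opposite to that printed, 69 bases before the start, and in 0.0513% of all windows. These are matches of letters to reference sequence and were not tested for binding.

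The total count was between 32448991 and 45864176 per library, and 14936 rows passed the filter. High glucose against control called 15.4% of them at an adjusted p under 0.05 (edgeR's quasi-likelihood test, Benjamini-Hochberg over all tested rows), 7.62% higher and 7.8% lower in high glucose, and in 13.6% the libraries of the groups did not overlap. TXNIP, a gene that cells turn on with glucose, checked the labels: it was at 0.809 to 1.23 CPM (read counts scaled to library size) in the control libraries and at 5.38 to 12.9 CPM in those of high glucose. The deposited column HG_1 and control replicate 2 stood apart from the other 8 libraries on the second principal component, and their expression rose with the GC content of the transcript by 0.188 and 0.170 log2 units per 10 percentage points, against −0.0916 to −0.00519 in the others. Each of the 8 genes is given with and without them. As to cell identity, the RPE markers RPE65 and TTR had at most 6 and 0 counts in any library. Other RPE markers were expressed in every library, OTX2 at 87 to 102 CPM, MITF at 43.9 to 64.9 CPM and RLBP1 at 7.45 to 12.8 CPM. Of 13 RPE markers 9 were tested, and 3 were lower in high glucose, the keratins KRT8 and KRT18 and the pigment gene PMEL. OTX2, MITF and RLBP1 did not pass (log2 fold changes −0.12, −0.20 and −0.32, adjusted p = 0.0814, 0.102 and 0.133, edgeR). The summed RPE marker level was 1796 to 2470 CPM in high glucose and 2833 to 3591 CPM in control, and KRT8 and KRT18 made up 79.3% to 95.2% of it. BEST1, a channel of the RPE membrane, was at 264 and 551 CPM in control replicates 1 and 4 and at 0.577 to 7.79 CPM in the other 8 libraries (log2 fold change −4.97, adjusted p = 0.0670). Of 8 macrophage markers 6 had under 10 counts in every library, and CD68, a lysosomal protein that many cells make, was higher in high glucose (log2 fold change 0.70, adjusted p = 0.00311). CSF1R, the other macrophage marker tested, was lower by a difference that did not pass (−0.43, adjusted p = 0.0502, 6.57 to 4.86 CPM). Of endothelial and of glial or neuronal markers 2 each were tested, and KDR passed (log2 fold change −0.63, adjusted p = 0.0452, at 1.82 to 4.57 CPM). The summed macrophage list, which is mostly CD68, was 105.5 to 149 CPM in high glucose and 60.8 to 88.7 CPM in control. What part these marker shifts had in the results below was not tested.

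Of the 8 genes, INSIG1 and STARD4 rose in high glucose, and the other 6 did not pass the test. This is 25% of the set, beside 15.4% of all tested rows. The libraries of the groups did not overlap for INSIG1 alone, 1 of 8, beside 13.6% of all tested rows. The SREBP genes themselves, their escort SCAP, INSIG2 and both LXR-driven genes had fold changes between 0.904 and 1.18. In these bulk samples, fewer cells that express a gene and less of its RNA per cell cannot be told apart.

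**Figure D1:**
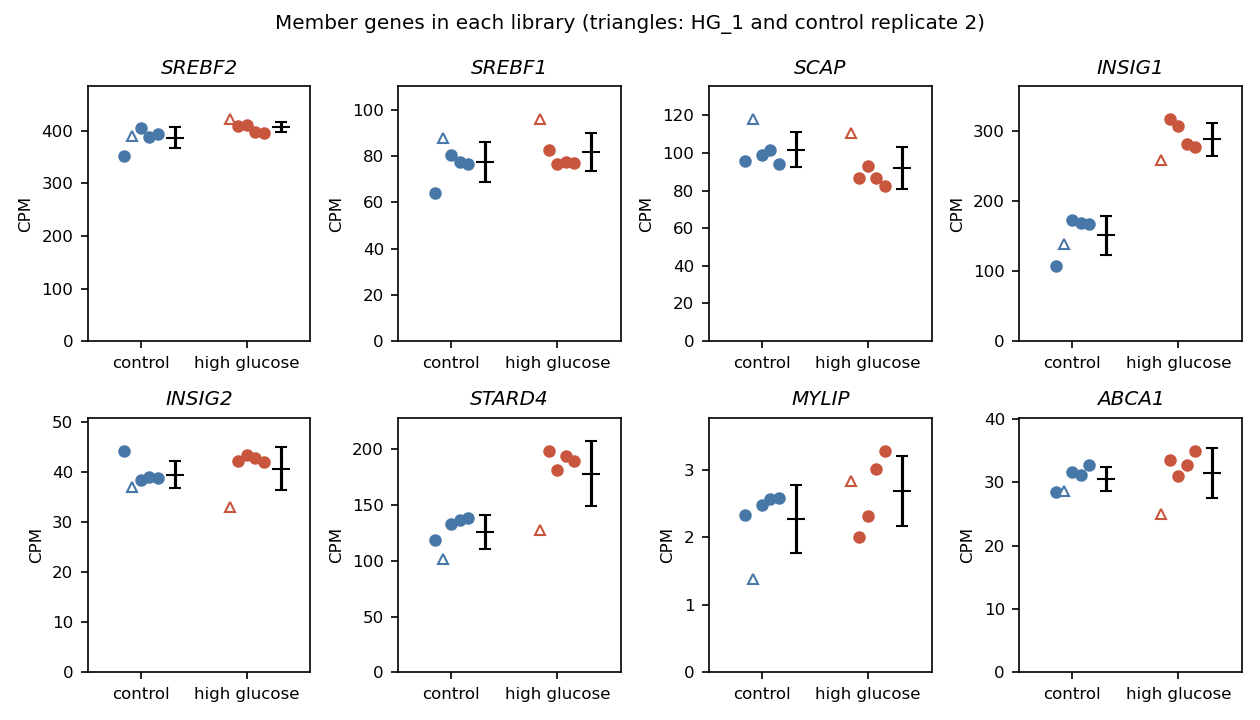
CPM (vertical axes, from 0, one scale per gene) of the 8 genes in each control and high glucose library, with the mean and SD of each group (n = 5) in black beside the points. Open triangles are HG_1 and control replicate 2. Only for INSIG1 do all high glucose points lie above all control points, and for STARD4 the HG_1 triangle at 127 CPM falls among the controls.

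INSIG1 encodes an anchor that holds the SREBP-SCAP pair in the endoplasmic reticulum when sterols are plentiful, and the gene is itself driven by the SREBPs. Its level in the high glucose libraries HG_1 to HG_5 was 259, 317, 308, 283 and 278 CPM. In control replicates 1 to 5 it was 108, 139, 173, 168 and 167 CPM. Every high glucose library was above every control library, and the gap between the groups, from 173 to 259 CPM, was wider than the SD in either group (27.7 CPM in control and 23.6 CPM in high glucose). The mean went from 151 to 289 CPM, a 1.91-fold increase (95% interval 1.59 to 2.30; log2 fold change 0.93 ± 0.122 SE, adjusted p = 0.000684, edgeR). By log2 fold change INSIG1 stood 224th from the top of all tested rows. It kept its call in each of the 24 other fits, among them those without each library in turn. Control replicate 1 was the lowest library, 0.467 log2 units below its group mean, and without HG_1 and control replicate 2 the groups still did not overlap (log2 fold change 0.94, adjusted p = 0.00133, edgeR).

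INSIG2 is the second anchor of the same family, at chr2:118088452-118110997 on the plus strand, and it is not driven by the SREBPs as INSIG1 is. It was at 33.0, 42.2, 43.3, 42.7 and 42.0 CPM in HG_1 to HG_5. In control replicates 1 to 5 it was at 44.2, 37.0, 38.4, 39.1 and 38.7 CPM. Apart from HG_1, the high glucose libraries sat between 42.0 and 43.3 CPM. That is above control replicates 2 to 5 (37.0 to 39.1 CPM) and below control replicate 1 (44.2 CPM). With HG_1 the lowest library of all, the groups overlapped. The difference was 0.04 ± 0.0816 (log2 fold change ± SE, adjusted p = 0.791, edgeR), with an interval of 0.910- to 1.17-fold. It was 0.11 without HG_1 (adjusted p = 0.179) and 0.09 without HG_1 and control replicate 2 (adjusted p = 0.218). On the scale of FPKM, which divides by transcript length and library size and so allows levels of different genes to be compared, INSIG1 exceeded INSIG2 by 3.12 to 5.72 times in the control libraries and by 8.21 to 9.77 times in those of high glucose. The groups did not overlap in this ratio, which averaged 4.89 ± 1.06 (SD, n = 5) in control and 8.99 ± 0.677 in high glucose. INSIG1 alone already separated the groups.

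STARD4 encodes a soluble carrier that moves cholesterol between membranes. Its level in HG_1 to HG_5 was 127, 198, 181, 194 and 189 CPM. In control replicates 1 to 5 it was 119, 102, 133, 137 and 138 CPM. HG_1 lay within the control range, and the other 4 high glucose libraries were above every control. The means of 126 ± 15.4 and 178 ± 29 CPM (SD, n = 5) differed by 1.42-fold (95% interval 1.17 to 1.71; log2 fold change 0.50 ± 0.125 SE, adjusted p = 0.0203, edgeR). The call was lost without HG_2 (0.46, adjusted p = 0.0540), without HG_4 (0.47, 0.0518), without control replicate 1 (0.48, 0.0536) and in limma fits of the FPKM values (adjusted p between 0.0546 and 0.0644). With HG_1 and control replicate 2 left out, the log2 fold change was 0.53 (adjusted p = 0.00022), and the groups did not overlap, as for 30.7% of all rows in groups of 4. That fit called 27.1% of all rows. STARD4 has a transcript with 34.2% GC, lower than in all but 0.613% of tested genes, and both of those libraries were low for it, by 0.465 and 0.295 log2 units against their group means.

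SREBF2 encodes SREBP-2, the main driver of cholesterol synthesis and lipoprotein uptake. It was at 422, 409, 411, 399 and 397 CPM in HG_1 to HG_5, and at 353, 391, 406, 389 and 395 CPM in control replicates 1 to 5. All but control replicate 1 lay between 389 and 422 CPM, and the groups overlapped. The difference was 0.08 ± 0.0439 (log2 fold change ± SE, adjusted p = 0.30, edgeR), and its interval reached from 0.985- to 1.13-fold. Without HG_1 and control replicate 2 it was 0.07 (adjusted p = 0.281), and without control replicate 1 it was 0.044, within a range of 0.044 to 0.093 over the fits that left out 1 library. With a correction for GC content and length, chosen after the data were seen, SREBF2 passed the test at a log2 fold change of 0.13 (adjusted p = 0.0225), in a fit that called 29.3% of all rows.

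SREBF1 encodes SREBP-1, whose isoforms drive fatty acid synthesis, at chr17:17810399-17837002 on the minus strand. It was at 95.8, 82.7, 76.6, 77.4 and 76.8 CPM in HG_1 to HG_5, and at 64.2, 87.7, 80.6, 77.4 and 76.7 CPM in control replicates 1 to 5. The top value in each group was in HG_1 and in control replicate 2, and the groups overlapped (log2 fold change 0.08 ± 0.0888 SE, adjusted p = 0.610, edgeR, interval 0.924- to 1.21-fold). Left without these libraries the difference was 0.07 (adjusted p = 0.499), and it was 0.02 without HG_1 alone and 0.13 without control replicate 2 alone (adjusted p = 0.877 and 0.343). With the GC and length correction it passed at 0.16 (adjusted p = 0.0448). Its exons share 556 of 8030 bases with RAI1 on the opposite strand, and whether reads were counted by strand is not given in the sources used here. The same holds for STARD4, which shares 124 of 5684 exonic bases with STARD4-AS1, and for SREBF2, which shares 280 of 7557 with SREBF2-AS1, and neither of these antisense genes has a row in the table. The levels of SREBF2 and SREBF1 kept nearly the same proportion, with an FPKM ratio of 4.33 ± 0.283 in control and 4.39 ± 0.348 in high glucose (SD, n = 5). The isoforms of SREBF1 were not separated in a row per gene.

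SCAP, the escort and sterol sensor of the SREBPs, lies at chr3:47413694-47477126 on the minus strand. It was at 111, 86.8, 93.0, 86.6 and 82.6 CPM in HG_1 to HG_5, and at 95.7, 118, 99.1, 101 and 94.4 CPM in control replicates 1 to 5. HG_1 and control replicate 2 were again the highest of their groups, by 0.276 and 0.217 log2 units over the group mean, and SCAP is GC-rich (62.3%). Over all libraries the groups overlapped and the difference of −0.15 ± 0.0880 did not pass the test (log2 fold change ± SE, adjusted p = 0.321, edgeR). Without HG_1 and control replicate 2 the other 4 high glucose libraries, at 82.6 to 93.0 CPM, were all below the other 4 controls, at 94.4 to 101 CPM, a separation that 30.7% of all rows had in these groups of 4. The log2 fold change was then −0.16 (adjusted p = 0.0228), and it was −0.22 without HG_1 alone (adjusted p = 0.0499). These fits called 27.1% and 19.9% of all rows. The FPKM ratio of INSIG1 to SCAP, added to the planned ratios, was 1.59 to 2.53 in control and 3.28 to 5.22 in high glucose. The groups did not overlap in it, but INSIG1 alone already separated them.

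MYLIP, also called IDOL, lies at chr6:16129125-16148248 on the plus strand and was the lowest of the 8 genes, with 62 to 115 counts per library. It was at 2.83, 2.01, 2.32, 3.01 and 3.28 CPM in HG_1 to HG_5, and at 2.33, 1.39, 2.48, 2.57 and 2.58 CPM in control replicates 1 to 5. The groups overlapped, and the difference of 0.24 ± 0.206 did not pass the test (log2 fold change ± SE, adjusted p = 0.499, edgeR). Its interval was 0.864- to 1.62-fold. Without control replicate 2, its lowest library, the log2 fold change was 0.11 (adjusted p = 0.719), and without HG_1 as well it was 0.09 (adjusted p = 0.761). Counting error alone (the square root of the count over the count) was 9.33% to 12.7% of its level in a library, beside a spread between libraries of 22.1% in control and 19.3% in high glucose (coefficient of variation).

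ABCA1, the exporter, was at 25.0, 33.5, 30.9, 32.8 and 35 CPM in HG_1 to HG_5. In control replicates 1 to 5 it was at 28.5, 28.6, 31.6, 31.1 and 32.8 CPM. HG_1 was the lowest library and HG_5 the highest, with the controls between them. The difference was 0.04 ± 0.0888 (log2 fold change ± SE, adjusted p = 0.813, edgeR), with an interval of 0.899- to 1.18-fold. It was 0.12 without HG_1 (adjusted p = 0.198) and 0.09 without HG_1 and control replicate 2 (adjusted p = 0.253). The interval over all libraries lies below the one of INSIG1, which starts at 1.59-fold.

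**Figure D2:**
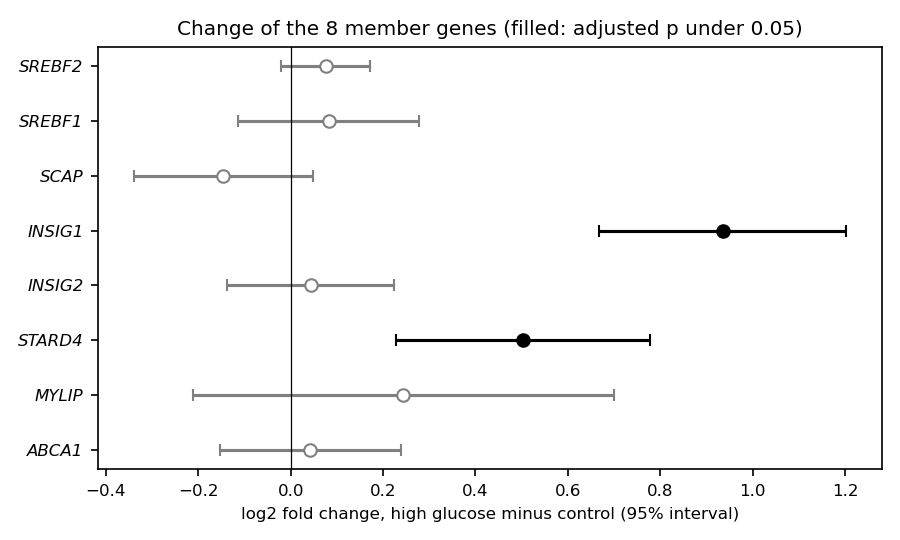
Log2 fold change of high glucose over control for the 8 genes (horizontal axis, with 95% intervals from edgeR, 5 libraries per group). Filled points passed at an adjusted p under 0.05: INSIG1 at 0.93 and STARD4 at 0.50. The intervals of the other 6 genes include 0.

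Set against each other as SREBP-2-driven and LXR-driven genes, the mean log2 CPM of INSIG1, STARD4 and SREBF2 exceeded that of MYLIP and ABCA1 by 4.32 to 4.78 in the control libraries and by 4.67 to 5.15 in those of high glucose. The group means of this difference were 4.53 ± 0.165 and 4.90 ± 0.196 (SD, n = 5), 0.36 apart, and the ranges overlapped. The overlap lay in control replicate 2 (4.78), the lowest library for MYLIP, and the other controls were at 4.32 to 4.56. The contrast is a description of genes chosen by name, with no test of its own. Ordered by FPKM, the control libraries had SREBF2 (68.4), INSIG1 (50.1), STARD4 (30.8), SCAP (23.9), SREBF1 (15.8), INSIG2 (10.3), ABCA1 (2.71) and MYLIP (0.680), and of neighbours in this order only STARD4 and SCAP overlapped. In high glucose the order was the same except that INSIG1 (95.5) stood above SREBF2 (72.5), and no neighbours overlapped.

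Within groups, much of the spread of 4 genes lay in the same libraries. HG_1 and control replicate 2 were low for the GC-poor STARD4 and INSIG2 and high for the GC-rich SCAP and SREBF1. With each library taken less its group mean, STARD4 and ABCA1 had a Pearson correlation of 0.92, INSIG2 and SREBF1 of −0.91, and SCAP and STARD4 of −0.90, over the same 10 libraries and with HG_1 an end point in each. INSIG1 and SREBF2 correlated at 0.75, with control replicate 1 the lowest library for both. What part GC content had in these relations was not tested gene by gene.

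**Figure D3:**
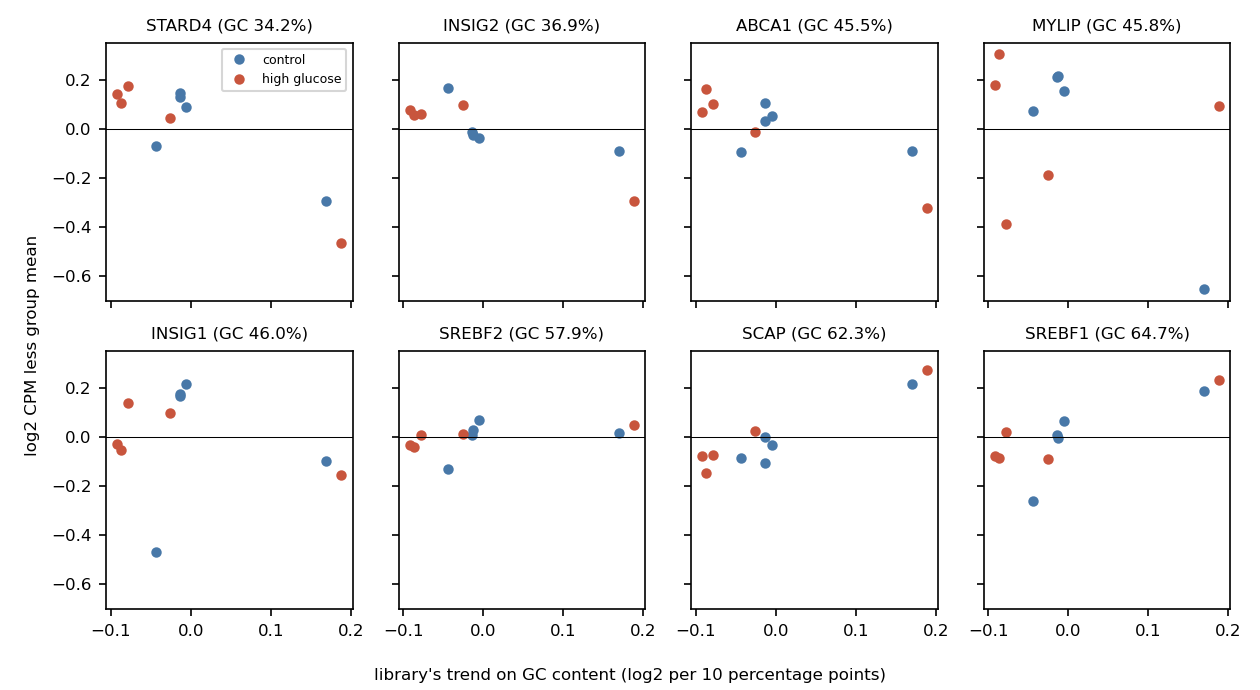
Log2 CPM of each gene less its group mean (vertical axis, log2 units) against the trend of each library on transcript GC content (horizontal axis, log2 units per 10 percentage points), with genes ordered by GC content. The rightmost pair of points in each panel, at 0.170 and 0.188, is control replicate 2 and HG_1, which lie low for STARD4 (34.2% GC) and high for SCAP (62.3%) and SREBF1 (64.7%).

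The genes around these members were described by lists. Among 20 genes of sterol synthesis, 18 rose and none fell, beside 7.62% of all tested rows called higher, with a median log2 fold change of 0.71 beside 0.0013 over all tested rows. IDI1, which makes the prenyl unit for chain building, rose 2.2-fold (210 to 461 CPM, adjusted p = 0.000107, edgeR). HMGCS1, which opens the mevalonate pathway, rose 2.08-fold (267 to 555 CPM, adjusted p = 0.000609). MVD, the decarboxylase of that pathway, rose 2.02-fold (106 to 215 CPM, adjusted p = 0.00163), as did the sterol demethylase MSMO1 (372 to 751 CPM, adjusted p = 0.000115). INSIG1, at 1.91-fold, lay just under these 4 genes. PMVK, the phosphomevalonate kinase, did not pass (log2 fold change −0.12, adjusted p = 0.603). Without HG_1 and control replicate 2, 18 of the 20 were called higher and 1 lower, PMVK (−0.17, adjusted p = 0.0381), beside 27.1% of all rows called in either direction.

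Of 13 fatty acid genes that SREBP-1 drives, 12 could be tested, and 11 rose (median log2 fold change 0.53, beside 7.62% of all tested rows called higher), while SREBF1 itself did not pass. SCD, the desaturase that makes oleate, rose 2.35-fold (1000 to 2346 CPM, adjusted p = 0.000102, edgeR). ACSS2, which turns acetate into acetyl-CoA, rose 2.28-fold (38.4 to 87.6 CPM, adjusted p = 9.31e-05). FADS1, a desaturase of polyunsaturated fatty acids, rose 1.67-fold (adjusted p = 9.17e-05), LPIN1, a phosphatidate phosphatase, 1.48-fold (adjusted p = 0.00884) and the fatty acid synthase FASN 1.36-fold (adjusted p = 0.00228). ACACA was the 1 tested gene that did not pass (0.23, adjusted p = 0.145), and THRSP had at most 5 counts in a library.

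Of 20 genes that move, cleave or degrade the SREBPs and their partners, none rose and 2 fell, which is 10% of the list beside 15.4% of all tested rows. RNF145, a ubiquitin ligase of the endoplasmic reticulum, fell to 0.791 of its control level (110 to 86.7 CPM, adjusted p = 0.0402), and SEC24C, a cargo adaptor of the vesicles that leave the endoplasmic reticulum, to 0.897 (163 to 146 CPM, adjusted p = 0.0223; edgeR for both). Both calls were lost without HG_2, without HG_3, without control replicate 1 and without control replicate 3, and in the limma fits of FPKM. The proteases that release the active SREBP fragment did not pass, MBTPS1 at −0.16 (log2 fold change, adjusted p = 0.0509) and MBTPS2 at 0.19 (adjusted p = 0.254). For MBTPS1 the groups did not overlap (164.2 to 192.9 CPM in control, 150.75 to 164.0 CPM in high glucose), as for 13.6% of all tested rows. It was called lower in DESeq2 (adjusted p = 0.0144) and with the GC and length correction (adjusted p = 0.0208), which called 29.3% of all rows. The median of this list was −0.07. Without HG_1 and control replicate 2 the test called 27.1% of all rows, and of the 20 it called 1 higher, MBTPS2 (0.17, adjusted p = 0.0462), and 5 lower, among them MBTPS1 (−0.17, adjusted p = 0.00923), SEC24D, a relative of SEC24C (−0.24, adjusted p = 0.0173), and FAF2 (−0.10, adjusted p = 0.0390).

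On the LXR side, 12 receptors and targets other than the members were listed and 10 were tested. None passed in edgeR, beside 15.4% of all tested rows called, or in DESeq2. At an unadjusted p under 0.05 there were 2, 1 higher at a log2 fold change of 0.24 and 1 lower at −0.57. The receptors NR1H2 (LXR beta) and NR1H3 (LXR alpha) were at 63.8 and 63.5 CPM and at 6.75 and 7.57 CPM in control and high glucose (log2 fold changes −0.01 and 0.17, adjusted p = 0.979 and 0.58, edgeR). The ABCA1 relative ABCG1 was listed at 0 counts in all 10 libraries, where 3 counts would be 0.0669 to 0.0912 CPM. The median of the list was 0.05. With HG_1 left out, the lower gene was called at −0.72 (adjusted p = 0.0397), in a fit that called 19.9% of all rows. With the GC and length correction it was called at −0.57 (adjusted p = 0.0197), and PLTP, a phospholipid transfer protein, was called higher at 0.22 (adjusted p = 0.0389). That fit called 29.3% of all rows.

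**Figure D4:**
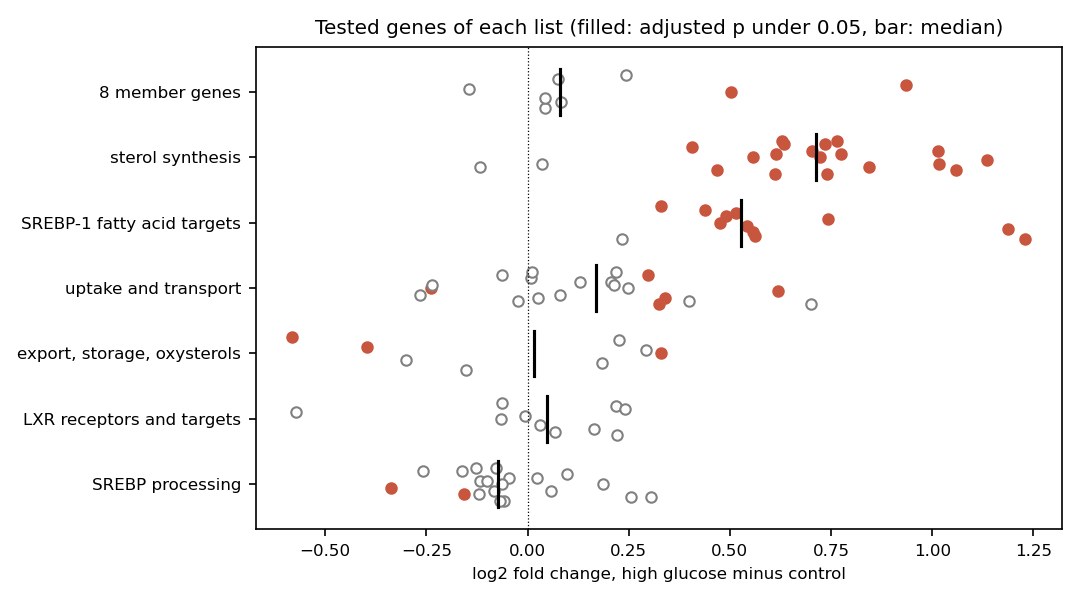
Log2 fold change of high glucose over control (horizontal axis) for the tested genes of each list (1 row of points per list). Filled points passed at an adjusted p under 0.05 in edgeR, and the black bar is the median. Sterol synthesis (median 0.71) and the fatty acid genes of SREBP-1 (0.53) lie to the right, and the LXR and SREBP processing lists lie about 0.

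Of 20 genes of lipoprotein uptake and movement of cholesterol inside the cell, 4 rose and 1 fell (median 0.17), 25% of the list. NPC1, which lifts cholesterol out of lysosomes, rose 1.53-fold (260 to 399 CPM, adjusted p = 0.00025, edgeR), and its soluble partner NPC2 1.25-fold (360 to 451 CPM, adjusted p = 0.0269). SCARB1, the receptor for high density lipoprotein, rose 1.26-fold (adjusted p = 0.00889), and LIPA, the lysosomal lipase that frees cholesterol from its esters, 1.23-fold (adjusted p = 0.0214). LRP1, a large endocytic receptor, fell to 0.847 of its control level (1644 to 1392 CPM, adjusted p = 0.00246), and the lipoprotein receptor VLDLR did not pass (−0.02 on the log2 scale, adjusted p = 0.895). With HG_1 and control replicate 2 left out, 8 of the 20 were called higher and 2 lower, in the fit that called 27.1% of all rows in place of 15.4%. The additions were the receptor LRP8 (0.35), the endocytic adaptor DAB2 (0.19) and the oxysterol-binding family members OSBPL8 (0.25) and OSBP (0.13), all higher, and the sterol carrier GRAMD1A, lower (−0.29, adjusted p = 0.00192).

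Of 11 genes of export, storage and oxysterol formation, 8 were tested, 1 rose and 2 fell (median 0.02), beside 15.4% of all tested rows called. SOAT1, which stores cholesterol as esters, rose 1.26-fold (153 to 192 CPM, adjusted p = 0.0247, edgeR). CAV1, the coat protein of caveolae, fell to 0.668 (236 to 158 CPM, adjusted p = 0.00097), and ABCA7, a transporter close to ABCA1 in sequence, to 0.760 of control (18.4 to 14.0 CPM, adjusted p = 0.0167). CYP27A1, which makes an oxysterol, was at 1.14 and 1.40 CPM (0.29 on the log2 scale, adjusted p = 0.434), and CH25H, which makes another, had at most 3 counts in a library. Without HG_1 and control replicate 2, 2 of the 8 were called higher and 3 lower, again beside 27.1% of all rows. The additions were NCEH1, which splits cholesterol esters (0.25, adjusted p = 0.0118), and the transporter ABCA2 (−0.18, adjusted p = 0.0170).

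The genes most like INSIG1 in log2 CPM over the 10 libraries, of 12364 compared, were SLC11A2, CYP51A1, SCD, MSMO1 and TPP1, with Pearson correlations of 0.996, 0.994, 0.992, 0.991 and 0.991. With each library taken less its group mean the correlations were between 0.941 and 0.986, so the likeness was also present between libraries of a group, where control replicate 1 was low in INSIG1. These genes were picked on the same 10 libraries, so the values within groups are not separate support. For ABCA1 the nearest were ZC3HAV1L, SLF2, CHUK, ZNF426 and GAB1, at 0.942, 0.942, 0.940, 0.940 and 0.927, and none of these 5 passed the test between the groups (adjusted p between 0.653 and 0.936). ABCA1 itself did not pass, and its nearest genes were picked for their likeness to it. The libraries share their depth and GC trend across all genes, and these correlations are a description of 10 points.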

How the data were processed

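RNA of ARPE-19 cells (10 libraries, 5 per group) was extracted with Trizol and made into libraries with the VAHTS Universal V6 kit. The submitters' processing notes name fastp 0.20.1, HISAT2 2.2.1 and GRCh38, and the counting program and its strand setting are not given in the sources used here. The authors deposited whole read counts per gene without normalization, and FPKM values, which the authors divided by length and library size. The 2163 rows named MSTRG, assembled loci, held 1.34% to 1.65% of a library. The high glucose columns carry numbers and the sample titles letters, so these libraries were assigned to their group only and are named by column.

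Counts were fitted in R 4.3.3 with edgeR 4.0.16: its default filter, TMM scaling, the quasi-likelihood test and Benjamini-Hochberg adjustment over 14936 rows, checked on simulated data. CPM uses TMM library sizes, and log2 CPM a prior count of 2. Fold changes carry the 95% interval of the fit. Alternatives used DESeq2 1.42.0, limma 3.58.1 on log2(FPKM + 1) and sva 3.50.0. GC content and length came from GENCODE release 29 for 13538 rows, and promoters from RefSeq on GRCh38.p14, where all 8 genes matched. The members and lists were chosen with earlier results of these data known. Named genes are the members, from each list up to 4 that passed and moved furthest on the log2 scale, at a mean of at least 1 CPM, further genes picked for their role, the 5 nearest in correlation to INSIG1 and to ABCA1 at a mean of at least 1 CPM, and TXNIP. Markers, and genes added by other fits, were named after their values were seen. Some genes are counted in their lists and not otherwise reported here. Precision is limited by the spread between libraries, and for MYLIP also by counting error, and floors of 3 counts cover counting error only.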

Additional observations from a re-analysis of the deposited data

Results flagged for a closer look

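For 3 values 1 library stood far from the other 4 of its group, with a gap above 0.71 of the range of the group (Dixon's rule); 26 groups of values were checked in all, and chance flags about 1 in 20. INSIG2 was at 33.0 CPM in HG_1 and at 42.0 to 43.3 CPM in the other high glucose libraries. STARD4 was at 127 CPM in HG_1 and at 181 to 198 CPM in the others. MYLIP was at 1.39 CPM in control replicate 2 and at 2.33 to 2.58 CPM in the other controls. These are the libraries that stood apart in their GC trend (0.188 and 0.170 log2 units per 10 percentage points). INSIG2 and STARD4 have GC-poor transcripts (36.9% and 34.2%, against a median of 48.5% of tested genes), and MYLIP, at 45.8%, lies nearer to the median. What part GC content had in the 3 values was not tested.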

How the results depend on the processing

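Of 24 other fits, INSIG1 kept its call in all, with a log2 fold change of 0.83 to 0.99, and ABCA1 passed in none (0.00 to 0.12), nor did MYLIP in the 23 that gave a value (it has none above a mean FPKM of 1). STARD4 ranged from 0.44 to 0.60 without 1 replicate. Its call was lost in limma on log2(FPKM + 1) at 0.47 (adjusted p = 0.0634), on log2(FPKM + 0.1) at 0.48 (0.0644) and above a mean FPKM of 1 at 0.47 (0.0546), and the cause was not tested. With the column number as a replicate block STARD4 gave 0.49 (adjusted p = 0.0541), and the block called 508 rows higher and 563 lower. Same-numbered columns did not deviate together (correlations of −0.0656 to 0.0392, and 1 of 5 high glucose columns closest to its own number), so the numbers are not taken to pair the libraries. The block called 0 of the SREBP processing list and 2 of the uptake list.

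With the GC and length correction, added after the data were seen, INSIG2 turned to −0.024 (adjusted p = 0.745), SREBF1 gave 0.16 and SREBF2 0.13. SCAP passed at −0.16 without HG_1 and control replicate 2, and at −0.20 with 1 surrogate variable (adjusted p = 0.0179). It ranged from −0.22 to −0.086 without 1 replicate. Rows called higher and lower were 1138 and 1165 in the main result. They were 1984 and 2051 without HG_1 and control replicate 2, 1965 and 2043 with the surrogate variable, 1961 and 2004 with the correction, 249 and 302 with a fold limit of 1.5, and 341 and 431 at an unadjusted p with that limit. Without 1 replicate they were 798 to 1469 and 850 to 1524.

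With both libraries left out, with the surrogate variable and with the correction, the SREBP processing list, 2 called, gave 6, 5 and 6, the uptake list, 5 called, gave 10 in each, and the export list, 3 called, gave 5, 5 and 4. The surrogate variable called 1 of the LXR list and the correction 2. DESeq2 called 4 of the processing list and 8 of the uptake list, beside 1498 rows higher and 1588 lower of 18371. Library size alone and no filter each called 1 of the processing list, and limma called 0. Without 1 replicate the processing list gave 0 to 3, the LXR list 0 to 1, the uptake list 3 to 10 and the export list 2 to 5. The causes were not tested. The sterol synthesis and fatty acid lists stayed within 14 to 19 and 10 to 12 called. A planned comparison of INSIG1 and INSIG2 proteins was not run.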
